A study of Bos taurus with 11 samples.

Results

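The unfolded protein response (UPR) was followed in single bovine blastocysts through 10 genes chosen by symbol, comprising the regulators ATF4, XBP1, DDIT3 and ATF6 and the endoplasmic reticulum (ER) chaperones and helpers HSPA5, HSP90B1, DNAJB9, CALR, PDIA4 and PDIA6. Their rows were found by the RefSeq accession that carries the symbol, and 8 of the 10 are listed in both expression tables. These 8 stand among 8576 transcripts in the table of GATA3 KO, 12047 in the table of CDX2 KO and 12056 in either. XBP1 and ATF6 have no row in either table and no value is given for them. The gene reference gives ATF6 only as a computed transcript model, whereas the tables were found to name curated transcripts only. XBP1 has curated transcripts in that reference.

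The series compared day 7 early blastocysts in 3 groups, namely WT control (3 embryos), GATA3 KO (4) and CDX2 KO (4), to examine the roles of GATA3 and CDX2, transcription factors of the trophectoderm (TE), in early lineage formation. All of the embryos, the controls included, received mRNA of the cytosine base editor BE3 as zygotes, and the KO embryos also received guide RNAs against GATA3 or CDX2 to create premature stop codons. WT control therefore means injected with the editor but no guide, not uninjected. Every library holds the polyadenylated RNA of 1 whole embryo, and editing was made in the zygote by injection, so an embryo can be a mosaic. In RNA of whole embryos, fewer cells of a type and less RNA per cell cannot be told apart.

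Proteins that enter the secretory pathway fold in the ER with the help of lectin chaperones, heat shock proteins and disulfide isomerases. When unfolded protein builds up there, membrane sensors respond. PERK (gene EIF2AK3) phosphorylates the translation factor eIF2 alpha, which lowers protein synthesis but favours translation of ATF4. IRE1 (gene ERN1) splices XBP1 mRNA, and ATF6 is cut in the Golgi to release a transcription factor. Much of this signalling acts on protein or on splicing, neither of which a transcript count reports, and its targets include the chaperones measured here.

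Libraries in the table of GATA3 KO held 150057 to 540775 counts, and in that of CDX2 KO 100731 to 662962, with CDX2 KO embryo 3 the shallowest. KO embryos are named by the numbers their columns carry, 3 to 6 for GATA3 KO and 2 to 5 for CDX2 KO. Taking 3 counts as the floor of detection, the libraries reach down to between 4.53 and 29.8 CPM, a limit that covers counting error only because PCR copies were not marked. KRT8 and KRT18, keratins of the TE, were detected in every embryo, as were POU5F1 and FN1. Summed TE markers lay between 3542 and 8067 normalized counts in the controls and between 3720 and 5339 in GATA3 KO, and, in the other table, between 4968 and 12469 in the controls and between 2447 and 8428 in CDX2 KO. KRT8 and KRT18 make up most of these sums. Single lineage markers were called in GATA3 KO by limma, with GATA2 (-1.16, adjusted p = 0.0344) and APOA1 (-1.55, adjusted p = 0.0295) lower and TFAP2C (1.03, adjusted p = 0.0442) and DPPA2 (1.99, adjusted p = 0.0232) higher on the log2 scale. Without WT control embryo 2 or GATA3 KO embryo 3, limma called 0 transcripts higher and 1 lower in all. TFAP2C and DPPA2 then lost their calls, as did at least 1 of GATA2 and APOA1. The 8 TE markers tested, with the targeted GATA3 among them, had a median log2 fold change of -0.78 in GATA3 KO (-0.30 without WT control embryo 1, -0.45 without embryo 2 and -1.20 without embryo 3). The 5 primitive endoderm markers tested had a lower median, -1.08, with 4 of them lower, and between -0.86 and -1.34 without any 1 embryo, while the 5 epiblast markers had -0.030 (0.0061 without WT control embryo 1 and -0.22 without GATA3 KO embryo 5). In CDX2 KO the 8 TE markers tested had a median of -0.65, with 1 higher and 7 lower, and between -0.39 and -0.99 without any 1 embryo. The primitive endoderm markers had -0.22 there (-0.46 to 0.11 without any 1 embryo) and the epiblast markers 0.14 (0.039 to 0.30). The part of these lineage markers in the values of the members was not tested. The targeted transcript GATA3 was at 79.9 in WT control and 12.2 in GATA3 KO embryos (log2 fold change -2.62, adjusted p = 7.6e-05, limma). The paper, by contrast, describes no obvious change of GATA3 transcripts in GATA3 KO embryos. Cumulus cell markers, which would mark leftover maternal cells, summed to 21.6 to 65.5 in WT control and 7.39 to 39.1 in GATA3 KO, and to 43.4 to 109 in WT control and 72.5 to 118 in CDX2 KO in the other table. CDX2 had only 2 to 14 counts per library in its own table, too few to check the labels. Y-linked transcripts were seen in all 3 WT control embryos (29 to 98 counts in the table of GATA3 KO), in GATA3 KO embryo 6 (68 counts) and in CDX2 KO embryo 5 (155 counts), against 0 to 2 in the other KO embryos, so Y-linked signal was unevenly spread between the groups. For any gene here, a difference of those other KO embryos from WT control cannot be told apart from this one.

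No member passed the threshold in either knockout. The test was limma on log2(normalized count + 1) over all transcripts with a mean of at least 10, and a call needed an adjusted p no higher than 0.05 together with a 1.5-fold or larger rise or a drop to 0.6 times the WT control level or less. In GATA3 KO, 0 of the 8 members were called, beside 2.01% of the 4271 transcripts tested (1.55% higher and 0.468% lower), and edgeR and DESeq2 on the recovered counts also called 0. That background rested on single embryos, since limma called 259 transcripts higher and 45 lower without WT control embryo 1, but 1 in all without WT control embryo 2 and 1 without GATA3 KO embryo 3. At an unadjusted p under 0.05, 1 member passed (DNAJB9, whose WT control mean of 8.75 was under 10), beside 22.6% of all transcripts. In CDX2 KO, limma called 0 members and 0 of the 5719 transcripts tested (0%), while 187 transcripts (3.27%) and 0 members had an unadjusted p under 0.05. There edgeR called 1 transcript and DESeq2 10, none of them a member. The groups overlapped for all 8 members in both tables, while they did not overlap for 18.9% of the transcripts tested in GATA3 KO (11.9% with KO above and 7.05% with KO below WT control) and for 5.88% in CDX2 KO (2.52% above and 3.36% below). A missed threshold does not show equal levels. In GATA3 KO the 95% interval of the fold change stayed within 2-fold in either direction for 4 members, ATF4, HSPA5, HSP90B1 and CALR. In CDX2 KO it did so for 0 members.

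**Figure D1:**
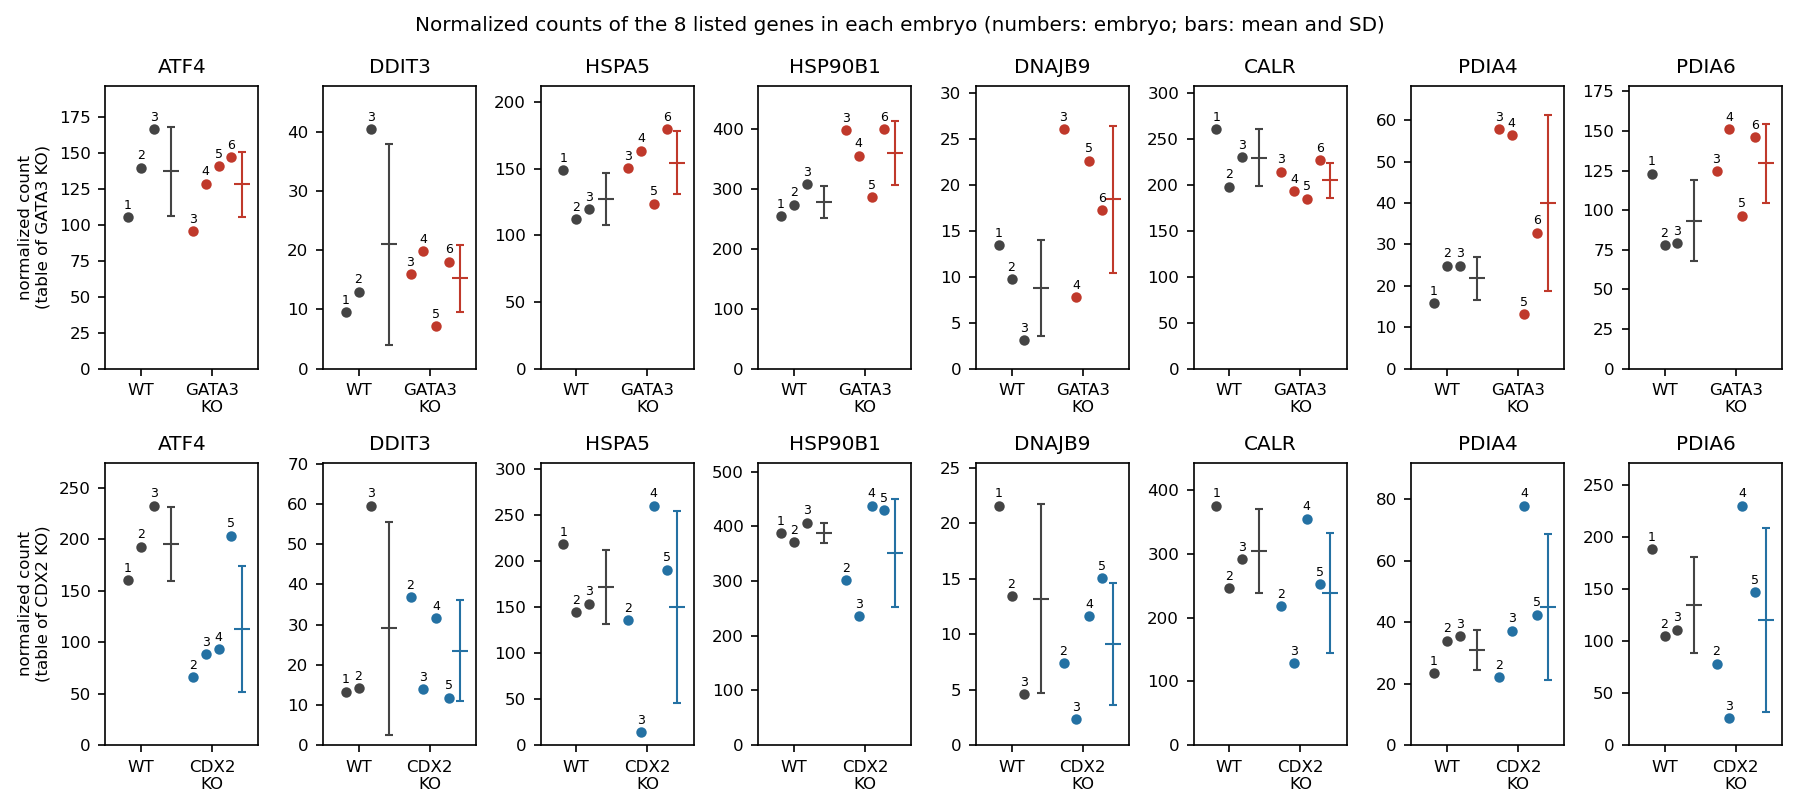
Normalized counts (vertical axes, linear from 0, one panel per gene) of the 8 listed genes in WT control and GATA3 KO embryos (upper row) and in WT control and CDX2 KO embryos (lower row); points are single embryos with their numbers, and bars are the mean and SD. In the lower row CDX2 KO embryo 3 is the lowest point for 5 of the 8 genes, and in the upper row 3 of 4 GATA3 KO embryos lie above all WT control embryos for HSPA5, HSP90B1, DNAJB9, PDIA4 and PDIA6.

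ATF4 (NM_001034342) is the transcription factor that switches on amino acid synthesis and transport genes when eIF2 alpha is phosphorylated. In the table of GATA3 KO it had normalized counts of 105, 139 and 166 in WT control embryos 1 to 3 and of 95.5, 128, 141 and 147 in GATA3 KO embryos 3 to 6. The 2 groups covered almost the same range. Their means were 137 ± 30.8 (SD, n = 3) and 128 ± 22.9 (SD, n = 4), a log2 fold change of -0.092 (standard error, SE, 0.25, 95% interval -0.62 to 0.43, adjusted p = 0.851, limma).

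ATF4 in the table of CDX2 KO was at 160.5, 193 and 233 in WT control embryos and at 66.2, 88.5, 92.9 and 203 in CDX2 KO embryos 2 to 5. Embryos 2, 3 and 4 were below every WT control embryo, and embryo 5 lay among them. This gave a log2 fold change of -0.90 (SE 0.44, 95% interval -1.86 to 0.05, adjusted p = 0.900, limma; two-sided exact permutation test, p = 0.114). By limma over all embryos at the deposited scaling, this was the lowest log2 fold change of any member in CDX2 KO. ATF4 stayed the lowest by edgeR and DESeq2, and without WT control embryo 1 or 2 or CDX2 KO embryo 3 or 5. HSPA5 was the lowest without CDX2 KO embryo 4 (-1.22, ATF4 -0.86) or embryo 2 (-0.91, ATF4 -0.70). Under quantile normalization it was again HSPA5 (-0.62, ATF4 -0.53), and without WT control embryo 3 it was DNAJB9 (-1.06, ATF4 -0.77). Embryo 5 was also the only CDX2 KO embryo with Y-linked counts, like the controls.

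DDIT3 (NM_001078163), also called CHOP, is a transcription factor linked to cell death under prolonged ER stress, and its transcript is a target of ATF4. It was rare, with 6 to 46 counts per library in the table of GATA3 KO. The controls had normalized counts of 9.47, 13 and 40.4, and GATA3 KO embryos 15.9, 19.8, 7.15 and 18.1. A single control, WT control embryo 3, stood above all other embryos, and the remaining values were mixed. The log2 fold change came to -0.25 (SE 0.46, 95% interval -1.21 to 0.70, adjusted p = 0.776, limma). It was 0.34 without WT control embryo 3 and -0.65 without WT control embryo 1.

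WT control embryo 3 was again the highest for DDIT3 in the table of CDX2 KO, where the WT control values were 13.3, 14.2 and 59.6 and the CDX2 KO values 36.8, 14.0, 31.5 and 11.8. Embryos 2 and 4 thus lay between the highest control and the other two, and embryos 3 and 5 beside the lower controls. The log2 fold change of -0.10 (SE 0.58, adjusted p = 0.979, limma) became 0.58 without WT control embryo 3 and -0.46 without WT control embryo 1. The log2 values of DDIT3 and ATF4 had a Pearson r of 0.43 over the 7 embryos of the table of GATA3 KO and of -0.14 over those of CDX2 KO, as a description, and of 0.59 and -0.037 without the 2 embryos farthest in ATF4. The ratio of DDIT3 to ATF4 counts within an embryo, which no scaling affects, was 0.0902 and 0.0930 in WT control embryos 1 and 2 and 0.243 in embryo 3 in the table of GATA3 KO. GATA3 KO embryos 3 to 6 had 0.167, 0.154, 0.0508 and 0.123. In the other table it was highest, at 0.556 (30 against 54 counts), in CDX2 KO embryo 2, and lowest, at 0.0580, in CDX2 KO embryo 5.

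HSPA5 (NM_001075148), or BiP, is the Hsp70 of the ER that holds the sensors inactive until unfolded protein draws it away, and its transcript is a widely used readout of the UPR. Normalized counts in the table of GATA3 KO were 149, 112 and 119.7 in WT control embryos and 151, 164, 124 and 179.8 in GATA3 KO embryos. Embryos 3, 4 and 6 were above all controls, embryo 3 only just, and embryo 5 lay within them. The means of 127 ± 19.5 (SD, n = 3) and 154 ± 23.7 (SD, n = 4) gave a log2 fold change of 0.28 (SE 0.23, 95% interval -0.22 to 0.77, adjusted p = 0.503, limma).

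CDX2 KO embryos were far more spread for HSPA5. They had 136, 14.0, 260.4 and 191 normalized counts, against 218, 145 and 154 in WT control embryos. Embryo 3 held only 6 HSPA5 counts, while embryo 4 was above every control. The log2 fold change of -0.76 (SE 0.78, 95% interval -2.44 to 0.92, adjusted p = 0.900, limma) turned to 0.16 without embryo 3 and was -1.22 without embryo 4. edgeR on the recovered counts gave -0.13. In CDX2 KO embryo 3 HSPA5 was low even against another chaperone. The ratio of HSPA5 to HSP90B1 counts was 0.0594 there, and between 0.377 and 0.595 in the other 6 embryos of the table.

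HSP90B1 (NM_174700), or GRP94, is the Hsp90 of the ER and folds integrins and Toll-like receptors among other clients. Its normalized counts in the table of GATA3 KO were 254, 273 and 308 in WT control embryos and 398, 355, 286 and 399.9 in GATA3 KO embryos. Embryos 3, 4 and 6 exceeded every control and embryo 5 lay among them, the same split as for HSPA5. The difference on the log2 scale was 0.36 (SE 0.22, 95% interval -0.10 to 0.83, adjusted p = 0.346, limma). The exact permutation p of 0.0857 (two-sided) was the lowest of the 8 members, where 3 embryos against 4 cannot go below 0.0286.

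For HSP90B1 the 3 controls in the table of CDX2 KO were close together, at 387, 370.4 and 407, and the CDX2 KO embryos lay on both sides of them, at 301, 235, 438 and 429. Embryos 2 and 3 were below all controls and embryos 4 and 5 above all. For CDX2 KO against WT control the log2 fold change was -0.19 (SE 0.39, adjusted p = 0.937, limma). It was -0.014 without embryo 3, -0.31 without embryo 4 and 0.24 under quantile normalization.

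DNAJB9 (NM_001193039), or ERdj4, is a J-domain partner of HSPA5 that helps to keep IRE1 silent. It had few counts in the table of GATA3 KO, 2 to 21 per library. The WT control values were 13.4, 9.73 and 3.11 and the GATA3 KO values 26.0, 7.75, 22.6 and 17.2. Embryos 3, 5 and 6 were above all controls and embryo 4 lay between the lowest control and the next. The log2 fold change of 1.06 (SE 0.49, 95% interval 0.02 to 2.09) had an unadjusted p of 0.0455 and an adjusted p of 0.213 in limma, and the two-sided exact permutation test gave p = 0.143. This was the largest log2 fold change of the members by limma over all 7 embryos, but it was 0.52, below the 0.77 of PDIA4, without WT control embryo 3, which held 2 counts, and edgeR also gave less for DNAJB9 (0.78) than for PDIA4 (0.82). The mean of DNAJB9 was 8.75 in WT control and 18.4 in GATA3 KO. It thus reached the mean of 10 needed for the test only through the group where it was high. Beside CDX2 KO the WT control values were 21.6, 13.4 and 4.59 and the CDX2 KO values 7.35, 2.33, 11.6 and 15.0, with 1 count in embryo 3. The groups overlapped fully apart from that embryo (log2 fold change -0.50, SE 0.76, adjusted p = 0.931, limma). The value was -0.036 without embryo 3 and -1.06 without WT control embryo 3.

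CALR (NM_174000), calreticulin, is a calcium-binding lectin chaperone for glycoproteins. Its values in the table of GATA3 KO were 260.4, 198 and 230.0 in WT control embryos and 214, 193, 185 and 227 in GATA3 KO embryos. It was the only one of the 6 chaperones with a lower mean in GATA3 KO, and embryos 4 and 5 were below every control. The resulting log2 fold change was -0.16 (SE 0.22, 95% interval -0.62 to 0.30, adjusted p = 0.697, limma), with -0.064 without WT control embryo 1 and -0.26 without WT control embryo 2. Set against HSP90B1 within the same embryo, CALR gave count ratios of 1.02, 0.723 and 0.747 in WT control and of 0.538, 0.543, 0.646 and 0.567 in GATA3 KO embryos. All 4 GATA3 KO ratios were below the 3 control ratios. This is 1 of 4 pairs of members set in ratio after their values were seen, so it is given with no test, and no background over other pairs was computed.

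CALR in the table of CDX2 KO was at 376, 246 and 291 in WT control embryos and at 218, 128, 355 and 252 in CDX2 KO embryos. Embryos 2 and 3 were below all controls, and embryos 4 and 5 among them. On the log2 scale the fold change was -0.42 (SE 0.43, 95% interval -1.34 to 0.51, adjusted p = 0.900, limma). It was -0.15 without embryo 3 and -0.64 without embryo 4.

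PDIA4 (NM_001045879), or ERp72, is a disulfide isomerase with several thioredoxin-like domains. In the table of GATA3 KO it was at 15.8, 24.9 and 24.9 in WT control embryos and at 57.9, 56.4, 13.1 and 32.8 in GATA3 KO embryos. Embryos 3, 4 and 6 were again above all controls, whereas embryo 5 was below all of them. This gave a log2 fold change of 0.67 (SE 0.41, 95% interval -0.19 to 1.53, adjusted p = 0.344, limma). It was 1.12 without embryo 5 (adjusted p = 0.0921), 0.43 without embryo 3 and 0.44 without embryo 4. Beside CDX2 KO the control values were 23.5, 34.0 and 35.5 and the CDX2 KO values 22.1, 37.3, 78.0 and 42.4. Embryos 3, 4 and 5 were above all controls, and PDIA4 was the only member with a higher mean log2 value in CDX2 KO (log2 fold change 0.40, SE 0.46, adjusted p = 0.907, limma). This value was 0.098 without embryo 4 and 0.69 without embryo 2.

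PDIA6 (NM_001206345) is a disulfide isomerase that works with HSPA5 and has been tied to switching off IRE1. It was at 123, 77.8 and 79.3 in WT control and at 124, 151, 96.5 and 146 in GATA3 KO embryos. Embryos 3, 4 and 6 were above all controls, with embryo 3 close to WT control embryo 1. The log2 fold change came to 0.48 (SE 0.26, 95% interval -0.06 to 1.02, adjusted p = 0.279, limma). In the table of CDX2 KO the control values were 188, 105 and 111 and the CDX2 KO values 78.4, 25.6, 231 and 147. Embryo 3 was the lowest and embryo 4 the highest, as for HSPA5. The log2 fold change of -0.51 (SE 0.63, adjusted p = 0.917, limma) was 0.091 without embryo 3 and -0.95 without embryo 4. Embryo 3 had more PDIA4 than PDIA6 counts, a ratio of 1.45 (16 against 11 counts), while the ratio was between 0.125 and 0.338 in the other embryos of the table.

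**Figure D2:**
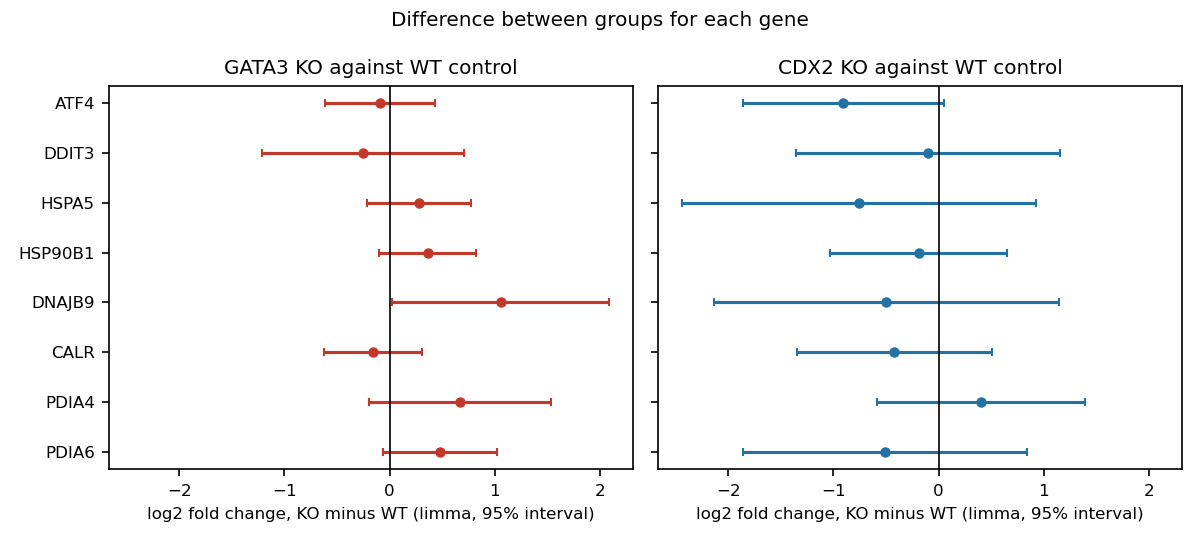
Log2 fold change of each gene, KO minus WT control, from limma (horizontal axis; points are estimates and bars 95% intervals), for GATA3 KO on the left and CDX2 KO on the right. Only the interval of DNAJB9 in GATA3 KO, 0.02 to 2.09, lies off 0, and the intervals are wider in CDX2 KO for each of the genes.

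Across the 8 members the median log2 fold change in GATA3 KO was 0.32, with 5 higher and 3 lower means, beside a median of 0.11 and 57.2% higher among all transcripts tested. In CDX2 KO the median was -0.46, with 1 higher and 7 lower, beside -0.15 and 39.5% higher among all. The median in CDX2 KO was 0.035 without embryo 3, -0.26 over 7 members without WT control embryo 1 and -0.66 without embryo 4, and it was nearer 0 by edgeR (-0.15), by DESeq2 (-0.14) and under quantile normalization (-0.16). The 2 comparisons share the WT control embryos, so they are not independent. These medians describe the members and carry no test.

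Embryo by embryo, the members' median log2 distance from the WT control mean was 0.35, 0.27, 0.0082 and 0.52 in GATA3 KO embryos 3 to 6, while the same median over all transcripts tested was 0.12 to 0.13 in each. By this median embryo 5 was the lowest of its group, though ATF4 was lowest in embryo 3 and DNAJB9 in embryo 4. In CDX2 KO embryos 2 to 5 the members' median was -0.45, -1.17, 0.35 and 0.16, and that of all transcripts -0.15, -0.39, 0.054 and 0.10. Embryo 3 was the lowest in both measures and embryo 2 the next. Of the 8 members, 5 had their lowest value of the 7 embryos in embryo 3, against 37.6% of all transcripts tested. Embryo 3 was also the library of lowest depth, and the part of depth in its values was not tested.

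The 6 chaperones were also summed as a share of each library, a measure that rests on 190 to 2153 counts and does not use the size factors by which the deposited counts were scaled. In the table of GATA3 KO the share was 0.323%, 0.310% and 0.328% in WT control embryos. It was 0.403% (95% Wilson interval 0.374 to 0.435), 0.398% (0.382 to 0.415), 0.297% (0.274 to 0.321) and 0.403% (0.381 to 0.426) in GATA3 KO embryos 3 to 6. The shares of embryos 3, 4 and 6 were above all controls, and their intervals did not reach those of the controls. Embryo 5 was below all controls, within counting error of WT control embryo 2. In the table of CDX2 KO the controls gave 0.319%, 0.299% and 0.3095%, and CDX2 KO embryos 2 to 5 gave 0.285%, 0.189%, 0.393% and 0.302%. Embryo 3, with an interval of 0.164 to 0.217, was far below the controls and embryo 4 above them. The controls varied less than the KO embryos in both tables. The intervals cover counting error only, so they speak for these libraries and not for the groups.

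**Figure D3:**
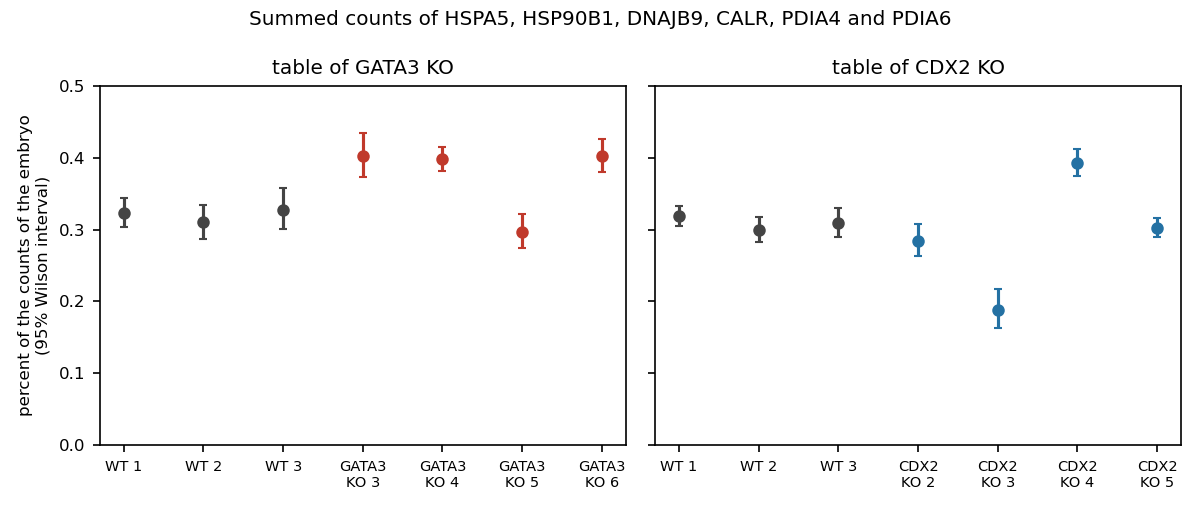
Share of the counts of each embryo (vertical axis, percent, from 0) that fell on HSPA5, HSP90B1, DNAJB9, CALR, PDIA4 and PDIA6 together; points are embryos, bars are 95% Wilson intervals, grey is WT control and colour is KO. The WT control embryos lie between 0.299% and 0.328% in both tables, 3 of 4 GATA3 KO embryos lie near 0.40%, and CDX2 KO embryo 3 lies at 0.189%.

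Of the other members, PDIA6 had the pattern most like that of HSPA5 in both tables. Their log2 values had a Pearson r of 0.97 over the 7 embryos of the table of GATA3 KO, where PDIA6 ranked 4 of 4270 transcripts by likeness to HSPA5, and r was 0.95 without the 2 embryos farthest from the median. With CDX2 KO embryos in place of GATA3 KO, r was 0.96 and the rank 163 of 5718, and r was 0.98 without CDX2 KO embryos 3 and 4. Closest to HSPA5 were PSMB4 (0.99), CTSV (0.97) and UTP4 (0.97) in the first table, and POLR2F, SF3A3 and PPAT in the second (r of 0.996, 0.995 and 0.995). HSPA5 and ATF4 had an r of -0.34 in the first table and 0.35 in the second. Without the 2 embryos farthest in HSPA5 these were 0.11 and 0.39, and without the 2 farthest in ATF4 they were -0.32 and -0.85, so the sign turned with the embryos left out. For ATF4 the closest transcripts were TMEM109 (0.99), CTNNAL1 (0.97) and SCNM1 (0.97) in the table of GATA3 KO. They were RPL27 (0.99), MRPL12 (0.97) and RPL26 (0.97) in that of CDX2 KO. These values are a description over 7 points that share size factors and group differences, and with so many transcripts some high values must occur.

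The other genes of the pathway were taken from 5 lists. Of the regulators of the UPR, 8 of 20 were tested in GATA3 KO, and EIF2S1, the alpha subunit of eIF2 that the sensor kinases phosphorylate, was called higher. EIF2S1 (NM_175813) had normalized counts of 31.6, 5.4 and 10.9 in WT control embryos and of 62.2, 36.2, 36.9 and 78.0 in GATA3 KO embryos. All KO embryos were above all controls, embryos 4 and 5 by little. The difference on the log2 scale was 1.93 (SE 0.44, 95% interval 1.01 to 2.84, adjusted p = 0.0309, limma), and DESeq2 called it as well. It was not called by edgeR (adjusted p = 0.0524), by limma with no trend (0.0930), or in 3 of the 7 fits without 1 embryo, those without WT control embryo 2 (log2 fold change 1.39, adjusted p = 0.173), WT control embryo 3 (0.0824) and GATA3 KO embryo 3 (0.101). EIF2S1 in CDX2 KO was at a log2 fold change of 0.17 (adjusted p = 0.969, limma), which lay between -0.45 and 0.89 with 1 embryo left out and turned negative in 3 of these 7 fits, and the difference between the knockouts was not tested.

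In CDX2 KO 12 of the regulators were tested, with a median log2 fold change of 0.19, which was lower without any 1 of the 7 embryos. It was -0.0037, -0.013 and -0.026 without WT control embryo 2, CDX2 KO embryo 4 or CDX2 KO embryo 5, 0.065 and 0.067 without WT control embryos 1 or 3, and 0.12 and 0.17 without CDX2 KO embryos 2 or 3. The 8 in GATA3 KO had a median of 0.30 (0.14 without WT control embryo 1, 0.18 without GATA3 KO embryo 6 and 0.43 without GATA3 KO embryo 5). Limma, edgeR and DESeq2 called 0 of the 12, and 1, MBTPS1, had an unadjusted p under 0.05, beside 3.27% of all transcripts. After MBTPS1, the lowest p belonged to DNAJC3, an HSPA5 partner that inhibits PERK (log2 fold change -1.08), and to PPP1R15A, the phosphatase subunit that reverses eIF2 alpha phosphorylation (0.83), both at an adjusted p of 0.900 (limma).

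Of the sensors themselves, ERN1 had no row, and EIF2AK3 and ATF6B could be tested in the table of CDX2 KO only, where neither was called. EIF2AK3 was close to the floor in the table of GATA3 KO, with means of 6.83 ± 4.39 (SD, n = 3) and 5.4 ± 3.48 (SD, n = 4) from 3 to 11 counts per library, and in CDX2 KO its log2 fold change was 0.28 (adjusted p = 0.954, limma). ATF6B, the paralogue of ATF6, was under the mean of 10 needed for the test in the table of GATA3 KO. Its values there were 12.6, 15.1 and 9.33 in WT control and 5.79, 7.32, 3.57 and 5.75 in GATA3 KO embryos, and every KO embryo was below every control. The two-sided exact permutation test gave the smallest p it can, 0.0286, on 3 to 17 counts, with no adjustment over genes. The groups likewise did not overlap for 15.7% of all 4305 transcripts under that mean, 576 of them with KO below and 99 with KO above. ATF6B in CDX2 KO was at a log2 fold change of -0.21 (adjusted p = 0.943, limma). MBTPS1, the site-1 protease that cuts ATF6 in the Golgi, was at a log2 fold change of 0.67 in GATA3 KO (adjusted p = 0.301, limma) and of 1.19 in CDX2 KO (adjusted p = 0.900, limma).

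Targets of ATF4 and DDIT3, mostly amino acid synthesis enzymes, transporters and tRNA synthetases, numbered 18 tested of 35 in GATA3 KO, with a median log2 fold change of 0.27 (0.12 without WT control embryo 1 and 0.41 without GATA3 KO embryo 3). Limma, edgeR and DESeq2 called 0 of them, and 4 of the 18 had an unadjusted p under 0.05, beside 22.6% of all transcripts. WARS1, the tryptophanyl-tRNA synthetase, was nearest, with 23.7, 13 and 18.7 in WT control and 57.9, 36.6, 26.2 and 46.8 in GATA3 KO embryos. Its groups did not overlap (log2 fold change 1.12, adjusted p = 0.0634, limma). XPOT, which exports tRNA from the nucleus, had 1.02 (adjusted p = 0.0712) and the amino acid transporter SLC7A5 -0.67 (adjusted p = 0.132, limma). ASNS, asparagine synthetase and a classical ATF4 target, was at a log2 fold change of 0.60 in GATA3 KO (adjusted p = 0.385) and of -0.20 in CDX2 KO (adjusted p = 0.952, limma). TRIB3, another target, had at most 12 counts in any library.

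In CDX2 KO 21 of the ATF4 and DDIT3 targets were tested, with a median of -0.20 (-0.39 without embryo 5, -0.13 without embryo 2 or 4, -0.079 without embryo 3 and -0.077 without WT control embryo 2), and 0 were called by limma, edgeR or DESeq2. An unadjusted p under 0.05 was reached by 1 of the 21, beside 3.27% of all transcripts. That gene was PSAT1, a serine synthesis enzyme, with 40.6, 85.3 and 28.7 in WT control and 17.2, 14.0, 2.49 and 20.4 in CDX2 KO embryos. All KO embryos were below all controls, as for 3.36% of all transcripts tested (log2 fold change -1.99, adjusted p = 0.900, limma). MTHFD2 of mitochondrial folate metabolism had -1.97 and SLC7A5 -0.90, both at an adjusted p of 0.900 (limma).

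Other ER chaperones and folding enzymes had a median log2 fold change of 0.10 over 24 tested of 42 in GATA3 KO, and of -0.063 without WT control embryo 3, 0.25 without WT control embryo 1 and 0.17 without WT control embryo 2. Limma called 0, with 6 of the 24 at an unadjusted p under 0.05 beside 22.6% of all transcripts, while edgeR and DESeq2 each called FKBP9 lower. FKBP9, a prolyl isomerase, was at 25.3, 32.4 and 21.8 in WT control and at 4.34, 5.17, 21.4 and 2.46 in GATA3 KO embryos. Embryos 3, 4 and 6 were far below the controls and embryo 5 just under the lowest (log2 fold change -1.93, adjusted p = 0.0551, limma). MANF, a secreted factor that is a sensitive UPR target, was at 73.4, 38.9 and 21.8 in WT control and at 72.4, 105, 81.0 and 103 in GATA3 KO embryos. Embryo 3 lay just below the highest control and the others above it (log2 fold change 1.15, adjusted p = 0.0634, limma). PRDX4, an ER peroxiredoxin, was at a log2 fold change of 1.10 (adjusted p = 0.0851, limma). CANX, the membrane lectin chaperone that partners CALR, had 0.27 (adjusted p = 0.506), PDIA3, the isomerase that works with both, 0.37 (adjusted p = 0.452), and SDF2L1, a UPR target, -0.22 (adjusted p = 0.735, limma). HYOU1 and P4HB had no row.

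In CDX2 KO the 25 other chaperones tested had a median of -0.33 (-0.11 without embryo 3, -0.18 without WT control embryo 1, -0.20 without embryo 2 and -0.44 without embryo 4), and limma, edgeR and DESeq2 called 0. An unadjusted p under 0.05 was reached by 2 of the 25, beside 3.27% of all transcripts. ERP44, which retains client proteins in the early secretory pathway, had a log2 fold change of -1.54, RCN2, a calcium-binding protein, -1.83, and FKBP9 -0.94, each at an adjusted p of 0.900 (limma). CANX, PDIA3, SDF2L1 and MANF had -0.19, -0.21, -0.40 and -0.39. MANF was spread as HSPA5 was, with 55.2, 4.66, 117 and 80 in CDX2 KO embryos 2 to 5, the lowest again in embryo 3.

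ER-associated degradation returns misfolded protein to the cytosol for the proteasome. Its genes had a median of -0.16 in GATA3 KO (-0.079 and -0.075 without WT control embryos 1 and 2, -0.11 without GATA3 KO embryo 5, -0.26 without WT control embryo 3), 26 of 37 tested, and limma, edgeR and DESeq2 called 0, with 2 at an unadjusted p under 0.05 beside 22.6% of all transcripts. Of the 26, 7 had a higher and 19 a lower mean, beside a median of 0.11 and 57.2% higher among all transcripts. Without WT control embryo 2 it was 11 and 15, beside 54.6% higher. DERL2, part of the retrotranslocation channel, was at 19.7, 9.73 and 10.9 in WT control and at 33.3, 32.7, 27.4 and 29.6 in GATA3 KO embryos. The groups did not overlap (log2 fold change 1.2, adjusted p = 0.0518, limma). SYVN1, the ubiquitin ligase of the pathway, had -0.94 (adjusted p = 0.167), NGLY1, which removes glycans, 0.90 (adjusted p = 0.235), and SEL1L, the partner of SYVN1, -0.10 (adjusted p = 0.871, limma). HERPUD1, a UPR target that binds the ligase, was under the mean of 10, at 3.95, 2.16 and 1.55 in WT control and 8.68, 6.46, 10.7 and 6.57 in GATA3 KO embryos. Every KO embryo was above every control, on 1 to 15 counts (exact permutation test, two-sided, unadjusted p = 0.0286, which is the lowest that 7 embryos allow). Of the list genes under that mean, the groups did not overlap for 3 of 28 (10.7%), 1 with KO above (HERPUD1) and 2 with KO below (ATF6B and SIL1). Among all 4305 transcripts under it they did not overlap for 15.7%, 99 with KO above and 576 with KO below. SIL1, an exchange factor for HSPA5, was the third, with all GATA3 KO embryos below all controls.

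Degradation genes in CDX2 KO had a median of -0.44 over 27 tested, 3 of them with a higher and 24 with a lower mean, beside a median of -0.15 and 39.5% with a higher mean among all transcripts. Without embryo 3 they had a median of -0.22, with 7 higher and 20 lower, beside -0.050 and 45.5% higher, and without embryo 5 the median was -0.55. Limma, edgeR and DESeq2 called 0, and 2 of the 27 had an unadjusted p under 0.05, beside 3.27% of all transcripts. SYVN1 (-1.04), FAF2 (-0.87) and DERL1 (-0.80) had the lowest adjusted p, at 0.900 (limma), and SEL1L had -0.44. SYVN1 was below all controls in each of the 4 CDX2 KO embryos, with 28.5, 24.5 and 20.6 against 11, 11.7, 15.8 and 8.05. The same held for FAF2, UBXN4 and VCP, so for 4 of the 27 genes, beside 3.36% of all transcripts.

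The oligosaccharyltransferase, the complex that attaches glycans to proteins entering the ER, had a median of 0.43 in GATA3 KO over 10 of 12 subunits tested, which was 0.066 without WT control embryo 3, 0.28 without GATA3 KO embryo 3 and 0.65 without WT control embryo 1. Limma, edgeR and DESeq2 called 0, and 3 of the 10 had an unadjusted p under 0.05, beside 22.6% of all transcripts. OSTC was at 37.9, 25.9 and 24.9 in WT control and at 69.5, 58.2, 56.0 and 38.6 in GATA3 KO embryos, above all controls in each, embryo 6 barely (log2 fold change 0.88, adjusted p = 0.0858, limma). KRTCAP2 had -0.73 (adjusted p = 0.146) and the catalytic subunit STT3B 0.70 (adjusted p = 0.184, limma). In CDX2 KO the median was -0.39 over 10 (-0.10 without WT control embryo 1, -0.16 without embryo 3 and -0.63 without embryo 4), with 0 called by limma, edgeR or DESeq2 and 0 at an unadjusted p under 0.05, beside 3.27% of all transcripts. RPN1 (-0.66), TMEM258 (-0.64) and KRTCAP2 (-0.58) came first, at an adjusted p of 0.900 (limma). Over the 5 lists together the groups did not overlap for 14 of 86 genes tested in GATA3 KO (16.3%), 7 with KO above and 7 below. Among all transcripts there it was 18.9%, 11.9% above and 7.05% below. In CDX2 KO they did not overlap for 6 of 95 (6.32%), 0 with KO above and 6 below. Among all transcripts there it was 5.88%, 2.52% above and 3.36% below. Of these 6 genes, 4 were among the 27 degradation genes tested.

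**Figure D4:**
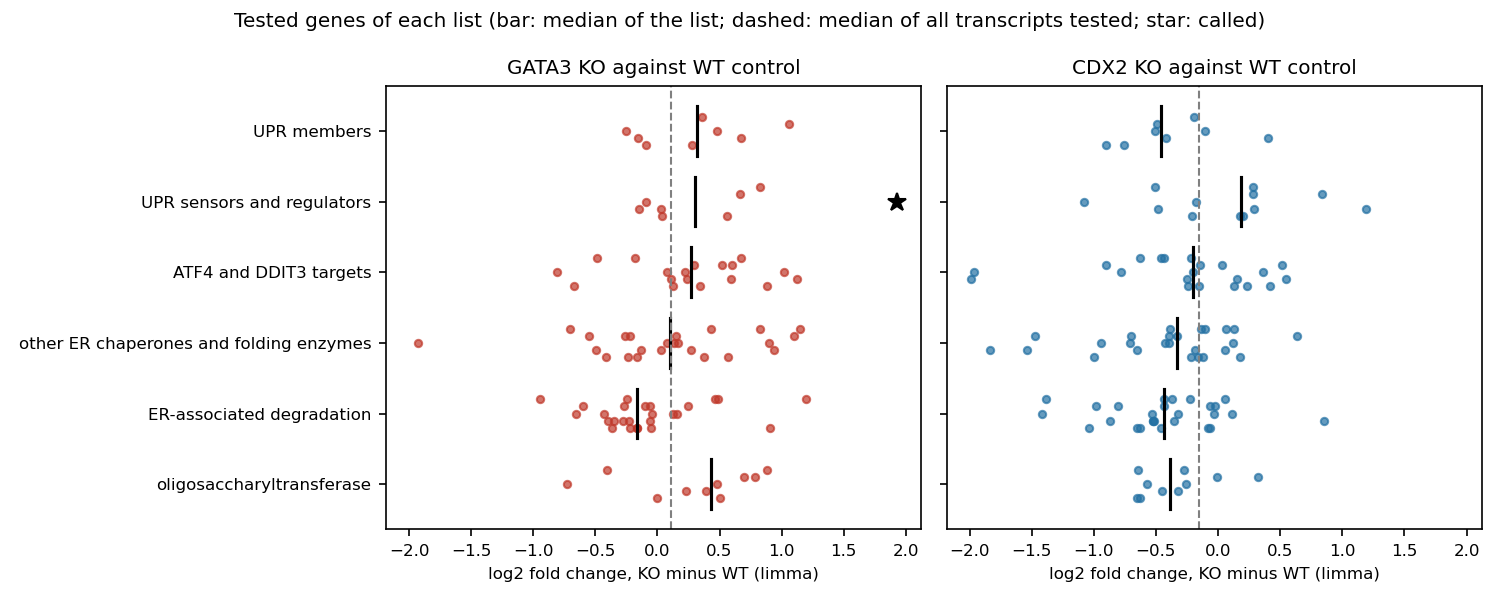
Log2 fold change, KO minus WT control, from limma (horizontal axis) of every tested gene of the members and of the 5 pathway lists (rows), for GATA3 KO on the left and CDX2 KO on the right. The medians lie between -0.16 and 0.43 in GATA3 KO and between -0.46 and 0.19 in CDX2 KO, and single genes spread widely in each row; EIF2S1 was the only gene of the lists called by limma.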

How the data were processed

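RNA of single blastocysts was made into Smart-seq2 libraries. The authors cleaned reads with Trimmomatic, aligned them by HISAT2 (build ARS-UCD1.2), and used featureCounts for counting and DESeq2 for normalization. The deposited signal of an embryo is its count over the size factor of its library, in one table for each knockout, with the same 3 WT control embryos in both. The deposited log2 fold changes, Wald scores and p-values of the authors' own comparisons were not used. Counts were recovered, since each column held whole multiples of a single step (100% of values, tolerance 0.01). No column of sample values was left out (0 unused). For the same WT control embryo, counts in the table of CDX2 KO were a median of 1.80 to 1.87 times those in the other, so embryos were compared only within a table. Even numbers made up 53.3% to 60.0% of the counts above 0 in that table and 46.5% to 50.4% in the other. Both reads of a pair may have been counted there, which was not tested, and its floors and counting intervals would then be too narrow. KO columns carry numbers of their own and were matched to their group alone. Nothing in the labels says whether embryos came from separate fertilizations, so p-values measure the spread between these embryos.

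Symbols came from RefSeq genes as annotated on ARS-UCD2.0 (98.6% of transcripts), and no coordinates were taken from there. The main test was limma 3.58.1 (R 4.3.3, prior with a trend) on log2(normalized count + 1), restricted to transcripts whose mean was 10 or more, and Benjamini-Hochberg adjustment ran over all transcripts of a table. Fold changes on this scale understate those of low transcripts. Exact permutation tests ran over the 35 splits of 7 embryos (scipy 1.17.1). edgeR 4.0.16 and DESeq2 1.42.0 were run on the recovered counts. The code was tested on simulated data. The members and lists were chosen with earlier results of these data known. Named genes were the members, every gene of a list that limma called or else the 3 of lowest adjusted p, a fixed set of well-known UPR genes, and the 3 transcripts closest to HSPA5 and to ATF4. GATA3, CDX2 and cell type markers served as checks.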

Additional observations from a re-analysis of the deposited data

How the results depend on the processing

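Other fold thresholds leave the adjusted p as it is, so they and the Y-linked covariate are not counted as checks here. Under the other 16 settings in GATA3 KO (125 member fits, adjusted p 0.0921 to 0.963) and 17 in CDX2 KO (132 fits, adjusted p at least 0.6) 0 members were called. This says little where almost nothing was called, as without WT control embryo 2 or GATA3 KO embryo 3 in GATA3 KO and throughout CDX2 KO. Signs turned in 4 and 8 of these fits, and the cause was not tested. Since all controls and 1 embryo of each KO group had Y-linked counts, a fit with the Y-linked covariate sets that embryo alone against the controls and is no adjusted group value. For GATA3 KO embryo 6 it gave 0.13 for ATF4, 0.065 for DDIT3 and 2.55 for EIF2S1 (adjusted p = 0.202, limma). Leaving out each embryo in turn gave -0.27 to 0.060 for ATF4 (positive without WT control embryo 3 or GATA3 KO embryo 3) and -0.65 to 0.34 for DDIT3 (positive without WT control embryo 3 or GATA3 KO embryo 5). For CDX2 KO embryo 5 it gave 0.075 for ATF4, 0.17 for HSPA5, 0.15 for HSP90B1, 0.39 for DNAJB9 and 0.18 for PDIA6. In CDX2 KO, quantile normalization gave 0.24 for HSP90B1 and 0.0016 for CALR, and median ratio rescaling 0.023 for DDIT3. Leaving out each embryo gave -0.46 to 0.58 for DDIT3 (positive without WT control embryo 3, CDX2 KO embryo 3 or 5), -1.22 to 0.16 for HSPA5 and -0.95 to 0.091 for PDIA6 (both positive only without CDX2 KO embryo 3), and -0.45 to 0.89 for EIF2S1. Quantile normalization moved the median of all transcripts in GATA3 KO from 0.11 to 0.0029, that of the members from 0.32 to 0.23, and the calls from 66 higher and 20 lower to 48 and 57. Calls there were 57 and 69 by edgeR and 72 and 86 by DESeq2. Without 1 embryo they were 259 and 45 (WT control embryo 1), 0 and 1 (WT control embryo 2 or GATA3 KO embryo 3), 13 and 7 (WT control embryo 3), 19 and 6, 30 and 15, and 139 and 48 (GATA3 KO embryos 4, 5 and 6). With a mean of at least 100, 5 members could be tested in each table. Without WT control embryo 1, DNAJB9 was under the filter in CDX2 KO. Halving the counts of the table of CDX2 KO for edgeR, in view of its many even counts, was chosen after seeing the data and gave a median of -0.12 for the members, with 0 called. No paired analysis was possible because the KO columns carry numbers other than the replicate numbers of the labels. With 3 embryos against 4 and few counts for DNAJB9 and DDIT3, small differences were not detectable.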
